A study of Mus musculus with 24 samples.

Results

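The measurements compared here are those of unstimulated NIH-3T3 cells, an established mouse embryonic fibroblast line, whose total RNA was taken 1 h after a change to fresh medium, either with the nucleoside 4-thiouridine (4sU) in that medium or without it. They make up 7 of the 24 expression arrays of the study: 4 arrays of mock cells given 200 uM 4sU for the whole 60 min, and 3 arrays of mock cells given no 4sU. Both groups were chosen by their sample titles, and both received medium without interferon. The other 17 arrays all held RNA of cells given 4sU: interferon alpha or interferon gamma at 100 U/ml for 1 h (4 arrays each, 200 uM 4sU for 60 min), and mock, interferon alpha or interferon gamma for 3 h (3 arrays each, 500 uM 4sU for the last 30 min). All cells were between the 5th and 15th passage after thawing, and each group stands for this single line. Of the 45037 probe sets on the array that are not controls, the 19305 that exceeded log2 4 on 3 or more of the 24 arrays were compared.

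4sU is a uridine analogue. Cells take it up through nucleoside transporters, phosphorylate it with uridine-cytidine kinases and build it into RNA in place of uridine, after which its sulphur can be used to tag new transcripts and separate them from older ones. The comparison of total RNA with and without 4sU asks whether labelling itself changes the transcripts of the cell, since a label that did so would alter what it is meant to report. Uridine analogues are known, at high exposure, to disturb the making of ribosomal RNA and to raise p53, which is why genes of the nucleolus and p53 targets were among those looked at.

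All values are log2 signals of the authors' GCRMA tables, and differences are log2 values with 4sU minus those without. With 3 and 4 arrays in the groups, the number of arrays limits the precision. No label says whether replicates came from separate cultures, so the spread behind each p-value is that of the arrays and could be technical. GCRMA scales arrays run together to each other, and no label says whether all arrays went through the same run. Fewer cells, less RNA per cell and a shift shared by most transcripts therefore cannot be told apart here. Separate processing of some arrays could not be seen either. All 17 fibroblast and matrix genes on the list were above log2 4 on at least 4 of the 7 arrays, with a median over the list between 11.25 and 12.66 on each. Of 10 leukocyte markers on the array only Cd14 was above that level, and of 11 epithelial and endothelial markers 0 were.

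The arrays differed in a measure of RNA integrity that touches every result below. Affymetrix arrays carry control probe sets for the 3' and the 5' part of the actin transcript, and the one-cycle labelling copies RNA from its 3' end, so that a large 3' minus 5' difference marks an array on which the 5' parts of transcripts gave less signal. Without 4sU the actin difference was 0.88 on replicate 1, 2.22 on replicate 2 and 3.31 on replicate 3. With 4sU it was 0.84, 2.99, 1.37 and 1.04 on replicates 1 to 4. Thus 2 of the 3 arrays without 4sU and 1 of the 4 with it were above 2, and among the other 17 arrays 2 were, the replicates numbered 2 of the interferon groups at 1 h, at 3.09 and 3.43. The corresponding Gapdh difference was 0.74 and 0.65 on the arrays without 4sU that were high for actin and -0.21 on the third. It was 0.48 on replicate 2 with 4sU and below 0 on the others.

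**Figure D1:**
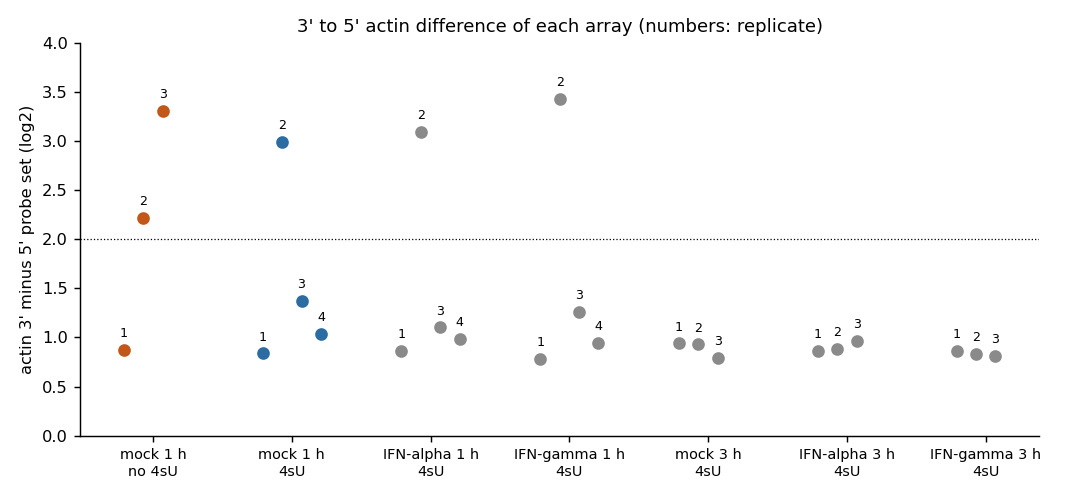
The actin 3' minus 5' difference (vertical axis, log2) is plotted for each of the 24 arrays by group, with the replicate number above each point. Orange points are mock cells without 4sU, blue points mock cells with 4sU and grey points the other groups. The dotted line marks the value 2. Above it lie replicates 2 and 3 of mock cells without 4sU, replicate 2 of mock cells with 4sU, and the replicates numbered 2 of the interferon groups at 1 h.

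The actin difference was therefore a term of the model that gave every value below unless stated otherwise. The model was a limma fit of 7 group means and 1 slope on the actin difference per probe set over the 24 arrays. This slope passed a Benjamini-Hochberg adjusted p of 0.05 for 65.7% of the probe sets: 5932 (30.7%) were higher on arrays with a larger actin difference and 6751 (35.0%) were lower. With group means alone the difference with 4sU moved with this slope. Among the 2559 probe sets with a slope under -0.5 the median difference was 0.45 with group means alone and 0.02 with the term. Among the 680 with a slope over 0.5 these medians were -0.21 and 0.15. Across probe sets, the correlation of the difference with the slope was -0.60 with group means alone and 0.03 with the term. Difference and slope come from the same arrays. In this model the term shifts each difference by exactly the slope times the gap in mean actin difference between the groups. These medians and correlations therefore largely follow from the arithmetic of the model and are a description only. The number of probe sets at 1 or more on the log2 scale fell from 216 with group means alone to 22 with the term, and the number at -1 or less from 69 to 48.

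**Figure D2:**
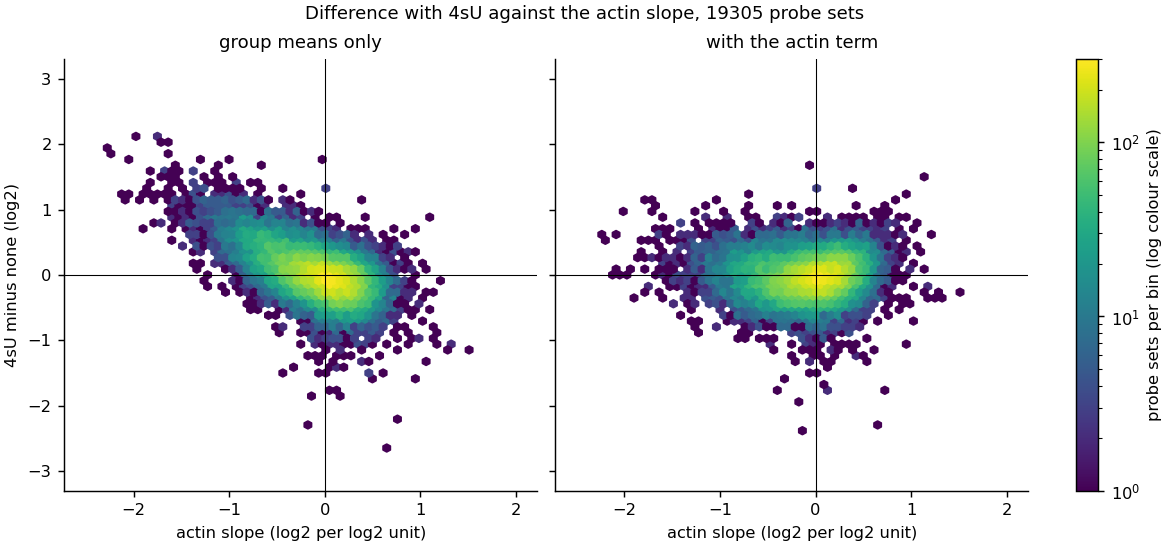
The log2 difference of 4sU minus none (vertical axis) is plotted against the actin slope of each of the 19305 probe sets (horizontal axis, log2 signal per log2 unit of actin difference), with the number of probe sets per bin as colour on a log scale. With group means alone (left) the cloud tilts from upper left to lower right, and with the actin term in the model (right) it lies level around 0. The shift between the panels is fixed by the model.

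Several genes show what the term does. Btg2, an antiproliferative gene induced by serum and by p53, read 9.35, 5.41 and 5.93 without 4sU and 9.69, 3.66, 8.50 and 10.70 with it. The low values belong to the arrays with a large actin difference in both groups. Its slope was -2.11, the steepest of the genes called for the actin term, and its difference was 1.24 with group means alone and 0.02 (95% interval -1.32 to 1.37) with the term. Arf5, a small GTPase of the secretory pathway, read 6.46, 2.14 and 2.13 without 4sU and 6.68, 1.90, 5.29 and 7.58 with it. Its slope of -2.07 took its difference from 1.79 to 0.59 (-0.37 to 1.56). Pfn1, which encodes the actin-binding protein profilin, had a slope of -1.98 and a difference of 2.10 with group means alone and 0.97 (-0.46 to 2.40) with the term. Triobp, which bundles actin, and Rabac1, which binds Rab GTPases, had slopes of -1.87 and -1.85. In the other direction the steepest slopes were those of St6galnac2 (1.54), a sialyltransferase, Sulf2 (1.19), which trims heparan sulphate, Rpgrip1 (1.17), Gsdme (1.14), a gasdermin, and Sephs2 (1.13), needed for selenoprotein synthesis. St6galnac2 read 4.65, 6.40 and 6.97 without 4sU and 3.86, 7.67, 5.64 and 2.17 with it, and its difference moved from -1.17 to -0.29 (-1.69 to 1.11). None of these 10 genes passed limma's adjusted p for the difference with 4sU, and the intervals given here for 4 of them each span over 1 log2 unit.

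Of 19305 probe sets 15 passed limma's adjusted p of 0.05, all 15 lower with 4sU (0.0777%) and 0 higher (0%) with the term in the model. With group means alone 6 passed, all lower (0.0311%). At an unadjusted p under 0.05 limma gave 1706 lower (8.84%) and 926 higher (4.80%). The median difference over all probe sets was -0.03, and 90% of them lay between -0.47 and 0.42. The typical 95% interval reached 0.39 to either side. For 90.0% of probe sets and 93.8% of the 9421 genes the whole interval lay within 1 log2 unit of 0. These intervals and limma's p-values rest on a spread pooled over all groups, so they do not give the precision of the compared arrays alone. The median SD was 0.35 in mock cells without 4sU and 0.40 in those with it at 1 h. In the groups of 3 h it was lower, at 0.12 to 0.13. How much of this gap the actin term removes was not tested. On the deposited values alone, 559 probe sets (2.90%) were lower on all 4 arrays with 4sU than on all 3 without, and 221 (1.14%) were higher. With so few arrays, groups can lie apart through the order of the arrays alone. Groups that lie apart are therefore given as a description, not as a sign of a difference.

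The count of 15 was far larger, with calls in both directions, when the replicate number was a block in the model, as given in the part on processing. It also depended on single arrays. It was 50 without replicate 1 of the cells without 4sU, 7 without their replicate 2 and 12 without their replicate 3. It was 162, 8, 5 and 6 without replicates 1 to 4 of the cells with 4sU. The absence of higher calls depended on single arrays as well: 17 of the 50, 1 of the 12 and 40 of the 162 were higher with 4sU, whereas in the other 4 of these fits 0 were. No probe set passed when only the 7 arrays were fitted, with the term or without it, where limma gave 816 lower and 437 higher at an unadjusted p under 0.05 with the term and 357 and 109 without it. The same held for the 15 arrays of 1 h, at 1020 lower and 543 higher.

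The 15 probe sets were mostly dim, and few measured a named transcript. A single gene symbol was given for 6 of them, several for 1 and none for 8, whereas no symbol was given for 1894 of all 19305. Their mean over the 24 arrays was under log2 5 for 12, and the mean with 4sU was below log2 4, the level taken as background, for 6. In 14 the arrays of the groups did not overlap. The filter on low values could be met through the 3 arrays without 4sU alone, and 3 of the 15 (175 of all 19305) needed those arrays to meet it: 1456453_at was above log2 4 on 0 of the 21 arrays with 4sU, 1457750_at on 1 and 1459578_at on 2. These 3 were kept through the group in which they are high, so their lower signal with 4sU supports nothing about the direction of the 15. With a stricter filter, above log2 6 in place of 4, 0 probe sets passed, at 1313 lower and 643 higher by limma's unadjusted p under 0.05. All 15 were lower with 4sU when arrays with an actin difference under 2 were compared alone and when arrays at 2 or more, 1 with 4sU and 2 without, were compared alone. For the 14 whose groups did not overlap this direction was fixed in advance, so it is no further support. With every value under 4 raised to 4, all 15 were still lower and 14 still passed. Raising values to 4 also removes spread among low values. For 1457750_at the difference shrank from -2.38 to -1.07 while limma's adjusted p fell from 0.0013 to 3.6e-06. These passes are therefore no further support for the calls. Because all but Pvr fell outside the rule for naming genes, these 14 were chosen for description after their values were seen.

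**Figure D3:**
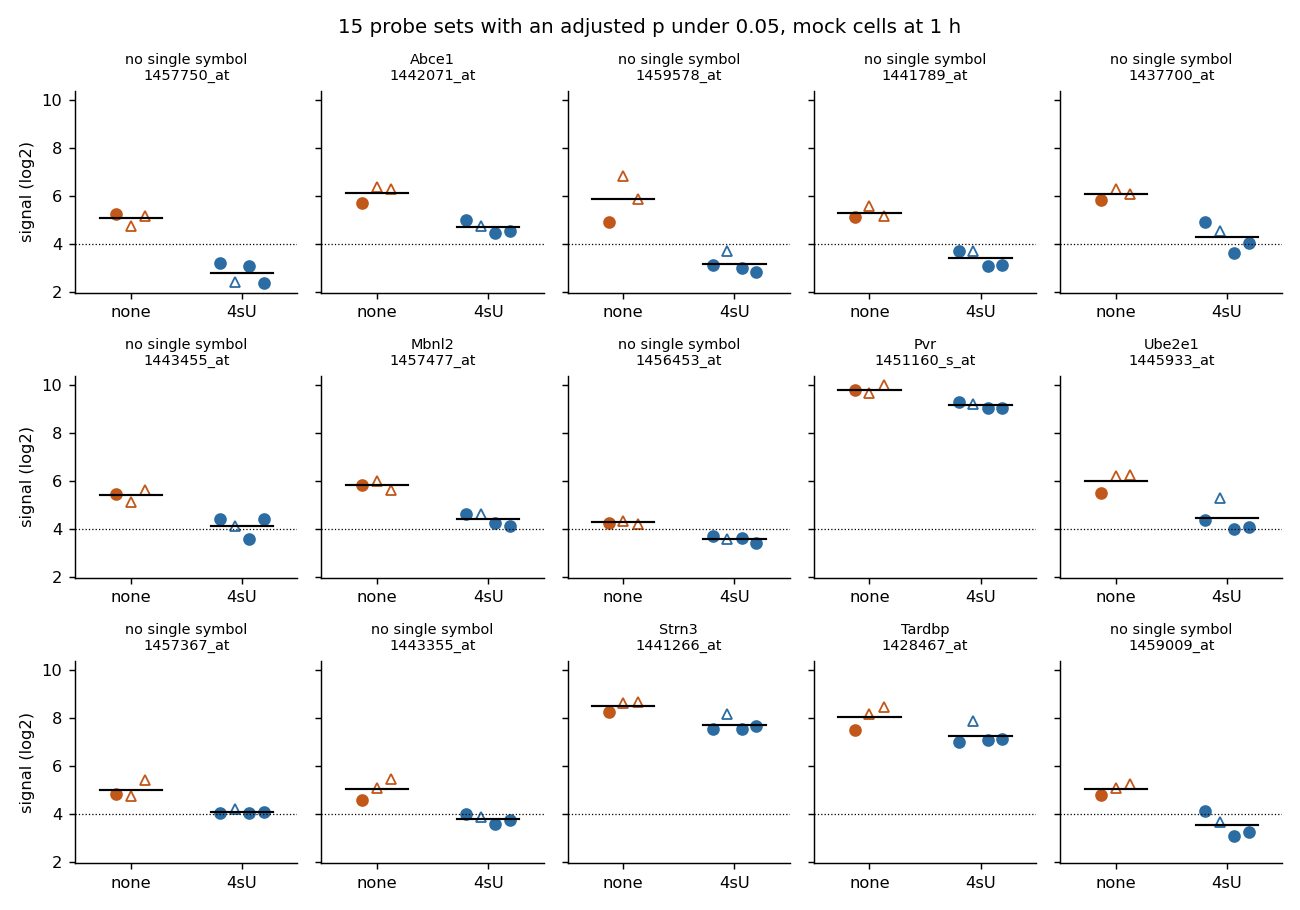
The log2 signal (vertical axis) is plotted for the 15 probe sets with an adjusted p under 0.05, with 3 mock arrays without 4sU in orange and 4 with 4sU in blue. Open triangles are arrays with an actin difference of 2 or more, black bars are group means and the dotted line is log2 4. In all but Tardbp every blue point lies below every orange one.

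The largest of these differences were in probe sets without a gene symbol. Probe set 1457750_at read 5.25, 4.76 and 5.17 without 4sU and 3.22, 2.44, 3.07 and 2.35 with it. All 4 values with 4sU were below background, so that the signal was at least 2.08-fold lower (difference -2.38, limma's adjusted p = 0.0013). The "at least" folds here compare group means of the deposited values, without the actin term, whereas the differences and adjusted p are with it. Probe set 1459578_at read 4.89, 6.82 and 5.87 without 4sU and 3.14, 3.71, 3.01 and 2.84 with it, at least 3.63-fold lower (-2.32, limma's adjusted p = 0.0013). With the actin term and values under 4 raised to 4 its difference was smaller, at -1.68. Probe set 1441789_at read 5.14, 5.56 and 5.17 against 3.71, 3.70, 3.06 and 3.12, at least 2.44-fold lower (-1.80, adjusted p = 0.0022). In these probe sets the signal was above background on each array without 4sU and below it on each array with 4sU. These and the Abce1 probe set 1442071_at passed without each of the 7 arrays in turn, whereas 10 others passed in 1 to 4 of those 7 fits and 1437700_at, whose symbols are Iqschfp and Schip1, in 6. The filter on low values was not redone in these fits. As given above, 1457750_at and 1459578_at were kept through the arrays without 4sU, so their passing supports nothing about direction. Of the other 5 without a symbol, 3 had a mean below background with 4sU: 1459009_at was at least 2.02-fold, 1443355_at at least 2.07-fold and 1456453_at at least 1.21-fold lower. With values under 4 raised to 4 the difference of 1456453_at was -0.27 and no longer passed (limma's adjusted p = 0.063). The remaining 2, 1443455_at and 1457367_at, had differences of -1.32 and -0.83, and 1437700_at had -1.74.

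Abce1 encodes the protein that splits ribosomes after translation ends. Its probe set 1442071_at read 5.72, 6.38 and 6.28 without 4sU and 4.98, 4.75, 4.46 and 4.55 with it. The mean was 6.12 ± 0.36 (SD, n = 3) without 4sU and 4.69 ± 0.23 (SD, n = 4) with it, and the highest array with 4sU lay under the lowest without. The difference was -1.38 (95% interval -1.75 to -1.01), 2.60-fold lower. The other Abce1 probe sets were far brighter and their differences smaller: 1416015_s_at, at a mean of 10.74 without 4sU, gave -0.35 (-0.70 to 0.00), and 1416014_at, at 9.65, gave -0.44 (-0.85 to -0.03), and neither passed (adjusted p = 0.37 and 0.33).

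Mbnl2, a regulator of alternative splicing, showed the same arrangement. Probe set 1457477_at read 5.83, 5.99 and 5.63 without 4sU and 4.62, 4.61, 4.24 and 4.13 with it, a difference of -1.34 (-1.82 to -0.86), 2.53-fold lower, with adjusted p = 0.030. The 3 brighter probe sets of the gene gave 0.12 (-0.08 to 0.33), -0.02 (-0.62 to 0.58) and -0.11 (-0.46 to 0.24). For Ube2e1, a ubiquitin-conjugating enzyme, 1445933_at read 5.50, 6.21 and 6.23 against 4.38, 5.31, 4.00 and 4.10, a difference of -1.28 (-1.76 to -0.79). Its bright probe set 1416943_at, at 10.69, 10.81 and 10.77 against 10.66, 10.84, 11.25 and 10.69, gave 0.14 (-0.14 to 0.42). The groups were apart on the first and overlapped on the second.

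Strn3 encodes a striatin, a scaffold subunit of protein phosphatase 2A. Its probe set 1441266_at was brighter than most of the 15, at 8.23, 8.64 and 8.67 without 4sU and 7.53, 8.19, 7.54 and 7.66 with it, and its difference was -0.66 (-0.92 to -0.40), 1.58-fold lower. The 2 brighter Strn3 probe sets gave -0.04 (-0.36 to 0.29) and -0.19 (-0.55 to 0.17). Tardbp encodes TDP-43, an RNA-binding protein of splicing and transcript stability. On 1428467_at it read 7.50, 8.17 and 8.46 without 4sU and 6.98, 7.88, 7.08 and 7.14 with it, so that the groups overlapped, and the difference was -0.59 (-0.82 to -0.36). Its other probe sets gave -0.19, 0.09, 0.17 and -0.04. With group means alone the adjusted p of the called probe sets was 0.25 for Strn3 and for Ube2e1 and 0.45 for Tardbp.

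Pvr was the only gene called on its brightest probe set, and so the only one named by rule. It encodes the poliovirus receptor CD155, an adhesion molecule of the nectin family. Probe set 1451160_s_at read 9.77, 9.65 and 9.98 without 4sU and 9.30, 9.21, 9.02 and 9.04 with it, and the groups did not overlap. The mean fell from 9.80 ± 0.17 (SD, n = 3) to 9.14 ± 0.13 (SD, n = 4), a difference of -0.65 (-0.89 to -0.40), 1.57-fold lower, with limma's adjusted p = 0.044. Its slope on the actin difference was 0.02, and the difference was -0.65 within the arrays under an actin difference of 2 and -0.61 within those at 2 or more. The size changed little without any 1 of the 7 arrays, between -0.72 and -0.57, but the adjusted p passed only without replicate 1 of the cells with 4sU (0.013) and was between 0.055 and 0.15 without any other. With group means alone it was 0.073. The other 5 Pvr probe sets had differences of -0.72 (-1.20 to -0.25) for 1423903_at, -0.42 for 1450295_s_at, -0.37 for 1423905_at, -0.32 (-0.61 to -0.04) for 1423904_a_at and -0.15 for 1429848_at, all without an adjusted p under 0.05. Thus all 6 Pvr probe sets had a negative difference, as did all those of Abce1 and Strn3, unlike those of Mbnl2, Ube2e1 and Tardbp.

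**Figure D4:**
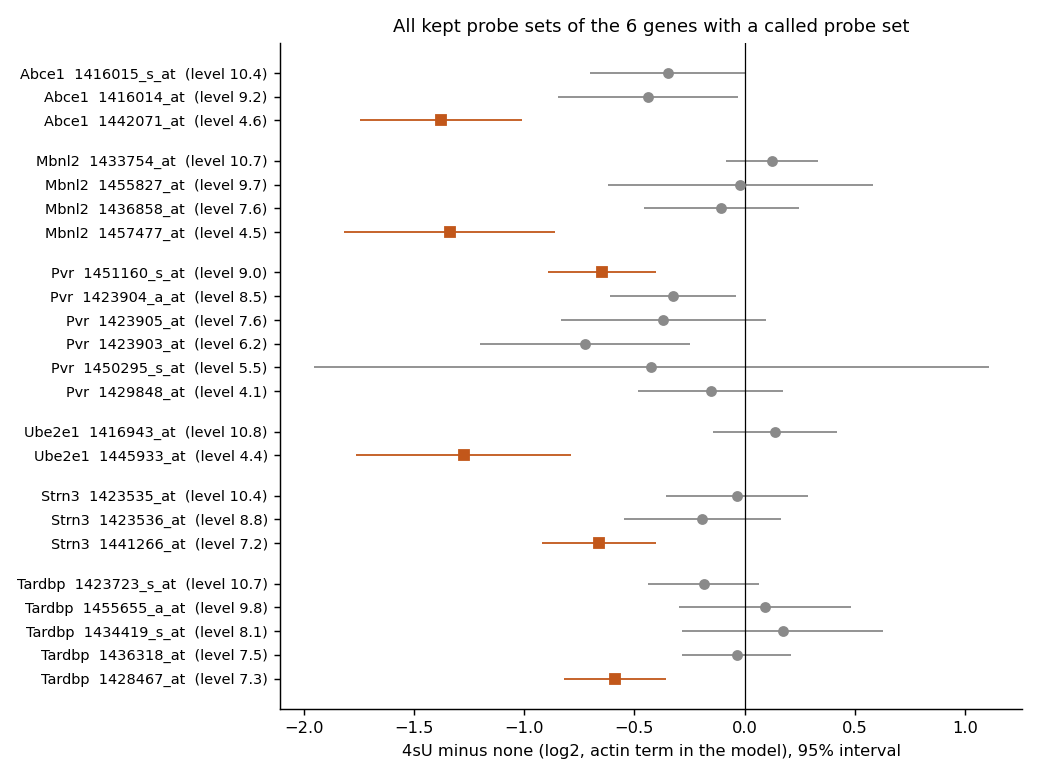
For each kept probe set of the 6 genes with a called probe set, the log2 difference of 4sU minus none (horizontal axis, actin term in the model) is drawn with its 95% interval, and the mean log2 signal over 24 arrays is given as the level. Orange squares passed the adjusted p and grey circles did not. The called probe sets of Abce1, Mbnl2, Ube2e1, Strn3 and Tardbp are the dimmest of their gene, whereas that of Pvr is the brightest.

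Over all genes the dimmer probe sets were not the lower ones on the median. In the 4439 genes with 2 or more kept probe sets, the difference of the dimmest minus that of the brightest had a median of 0.03, and it was -1 or less in 18 genes and 1 or more in 13. Whether probe sets of 1 gene differed from each other was not tested. Probe sets without a symbol had an unadjusted p under 0.05 with a lower signal in 13.6% of cases, against 8.45% of those with 1 symbol, and a higher signal in 4.70% and 4.71%.

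The 17 other arrays, all from cells given 4sU, were set beside the same 3 arrays without 4sU. They share these controls and differ in treatment, time, dose or labelling window, so they are given as levels only. All 21 arrays with 4sU were below the lowest array without 4sU for 12 of the 15 probe sets, against 0.813% of all kept probe sets. The 15 were called for being higher on these same 3 arrays, and 3 of them were kept by the filter through those arrays. The count is therefore no further support for the calls. For 1457750_at the 8 interferon arrays at 1 h had a median of 2.64 and reached at most 4.15, and the 9 arrays at 3 h were between 2.31 and 2.34. For the Abce1 probe set these were a median of 4.73 with a highest value of 5.02, and 3.77 to 4.11. Pvr had a median of 9.34 with a highest value of 9.45 at 1 h, and 8.16 to 8.48 at 3 h. Over all kept probe sets, 157 (0.813%) were lower on all 21 arrays with 4sU than on all 3 without, and 21 (0.109%) were higher. The 3 arrays without 4sU are the only ones of their kind, so anything else that set them apart from the other 21 cannot be told apart from the lack of 4sU.

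Just past the threshold stood 2 genes at an adjusted p of 0.051. Klf10, a zinc-finger factor induced early by TGF-beta and serum, read 11.03, 11.39 and 11.64 without 4sU and 10.51, 11.03, 10.30 and 10.48 with it, a difference of -0.65 (-0.91 to -0.39) with overlapping groups. Vrk2, a serine/threonine kinase, read 6.36, 6.86 and 7.15 without 4sU and 6.69, 7.79, 7.38 and 7.08 with it, a difference of 0.67 (0.40 to 0.93), and 0.45 with group means alone. These and the following genes did not pass and are given as values. Among the 273 genes (2.90%) whose arrays with 4sU all lay below those without, Foxc2, a forkhead factor of mesenchyme, read 8.85, 9.64 and 8.96 against 8.29, 8.25, 7.18 and 8.10 (-1.10, adjusted p = 0.096). Lif, a cytokine of the interleukin-6 family, read 8.62, 8.63 and 8.65 against 8.01, 7.93, 7.84 and 7.97 (-0.70, adjusted p = 0.089). Noct, which encodes the rhythmic protein nocturnin, read 11.07, 11.27 and 11.62 against 10.57, 10.79, 10.12 and 10.64 (-0.70, adjusted p = 0.091). For Lif the gap between the groups exceeded the range within either of them. Vrk2, Foxc2, Lif and Noct lie outside the rule for naming genes and were chosen after their values were seen. In the other direction 81 genes (0.860%) had all arrays with 4sU above those without. Of these Ddb2, a damage-recognition factor of nucleotide excision repair and a p53 target, read 4.08, 4.60 and 4.26 without 4sU and 4.81, 5.02, 4.98 and 5.28 with it (0.69, 0.31 to 1.08, adjusted p = 0.14). Sod1, a superoxide dismutase, read 10.75, 10.43 and 9.98 against 10.93, 10.83, 11.31 and 11.22 (0.50, 0.14 to 0.85).

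Genes were also read by lists written from textbook knowledge, each gene by its brightest probe set. In 26 of 26 lists 0 members passed limma's adjusted p, but the list of epithelial and endothelial markers had 0 measured genes, so that none could pass. Over all 9421 genes 875 (9.29%) had an unadjusted p under 0.05 with a lower and 426 (4.52%) with a higher value, and the median difference was -0.05. The counts of list members given next use this unadjusted threshold and are to be read against those shares. Of the 23 lists with 10 or more measured genes, 18 had a negative median and 5 a positive one, from -0.25 to 0.08.

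**Figure D5:**
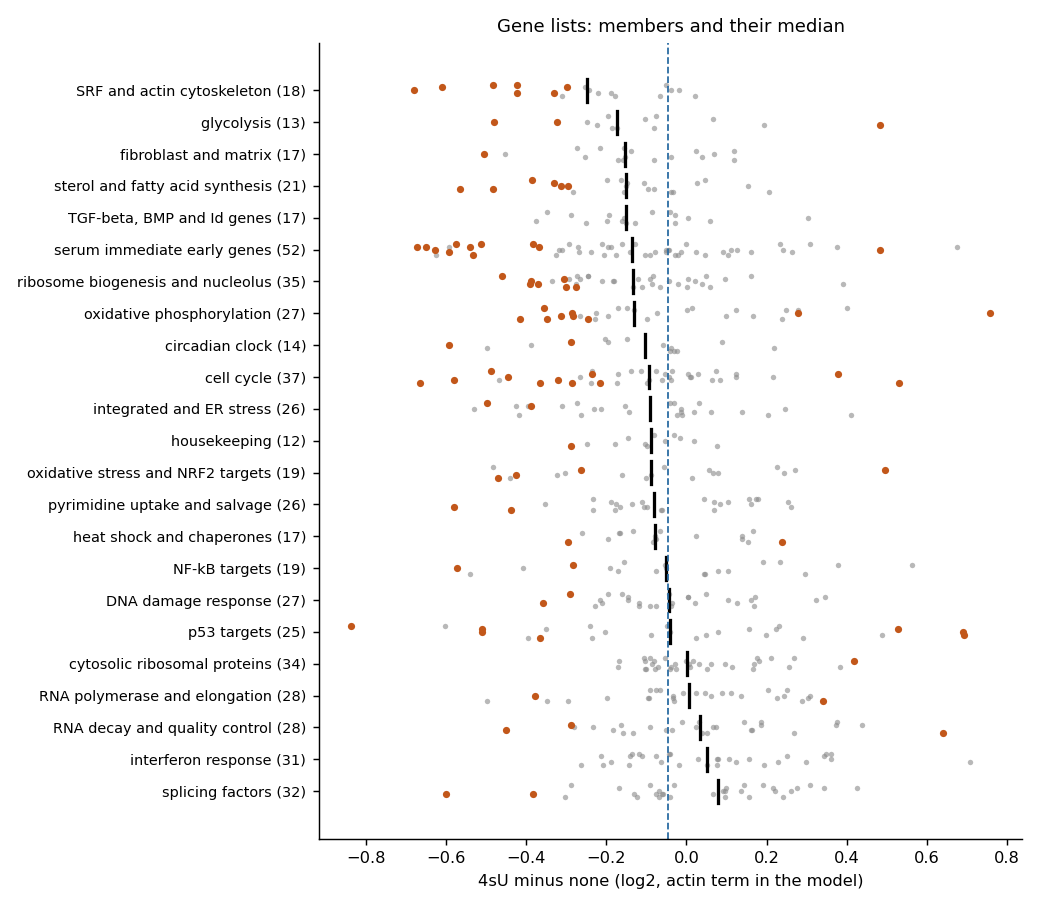
Each point is a gene of the list named on the vertical axis (with its number of measured genes), at its log2 difference of 4sU minus none (horizontal axis). Orange points have an unadjusted p under 0.05, black bars are list medians and the dashed blue line is the median of all measured genes at -0.05. The list medians lie between -0.25 and 0.08, and 0 of these genes passed the adjusted p.

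Genes that handle the label itself were near the median of all genes. In the list of pyrimidine uptake and salvage (26 measured) 2 members were lower and 0 higher, with a median of -0.08. Slc29a1, the equilibrative nucleoside transporter ENT1, read 6.27, 4.87 and 3.89 without 4sU and 6.41, 4.34, 5.95 and 5.67 with it, a difference of 0.58 with group means alone and of 0.10 (-0.40 to 0.61) with the term. Uck2, a uridine-cytidine kinase, had a difference of -0.18 (-0.53 to 0.18). The 2 members counted were Tyms, the thymidylate synthase (-0.58), and Dhodh, of pyrimidine synthesis (-0.44).

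For the nucleolus, the list of ribosome biogenesis (35 measured) had 7 lower and 0 higher, with a median of -0.13. The members counted had differences between -0.46 for Bop1, a factor of large-subunit processing, and -0.28. Bop1 read 8.59, 7.85 and 7.14 against 8.53, 6.74, 7.51 and 8.05, with overlapping groups. Ncl, the abundant nucleolar protein nucleolin, had -0.11 (-0.36 to 0.14). Cytosolic ribosomal proteins (34 measured) had a median of 0.00 with 0 lower and 1 higher, Rps9 at 0.42. Their median with group means alone was 0.09. Rps9 read 12.85, 10.93 and 10.69 without 4sU and 12.95, 11.08, 12.69 and 12.89 with it, and its low values lie on the 3 arrays with a large actin difference.

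Of p53 targets (25 measured) 4 were lower and 3 higher, with a median of -0.04 and values on both sides of 0. Cdkn1a, the cyclin-dependent kinase inhibitor p21 and a defining target, read 9.02, 9.17 and 8.63 without 4sU and 8.59, 7.82, 8.05 and 8.02 with it, a difference of -0.84 (-1.25 to -0.42, adjusted p = 0.11), with the groups apart. Mdm2, the ubiquitin ligase that degrades p53, had -0.51 (-0.87 to -0.15) with overlapping groups. Ddb2, given above, and Sesn1, a sestrin, both had 0.69, and Gadd45a, chosen after its value was seen, had 0.53. Ccng1, another target, had 0.23 (-0.08 to 0.54). In the DNA damage response list (27 measured) 2 were lower and 0 higher with a median of -0.04, and the 2 were Xrcc1 (-0.36) and Msh6 (-0.29).

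Immediate early genes, which serum in fresh medium induces within minutes and whose transcripts are short-lived, had a median standard error of 0.22, against 0.17 over all genes. Of 52 measured, 10 were lower and 1 was higher, with a median of -0.14. Egr1, a zinc-finger factor, read 12.37, 12.13 and 12.35 without 4sU and 12.27, 12.33, 12.21 and 12.53 with it, a difference of 0.05 (-0.21 to 0.31). Fos had 0.11 (-0.58 to 0.81), Jun -0.37 (-0.73 to -0.01) and Myc 0.31 (-0.48 to 1.10). Nr4a1, an orphan nuclear receptor, read 11.92, 11.19 and 11.12 against 11.57, 9.88, 10.98 and 12.00, a difference of -0.67 (-1.16 to -0.19). Ier2 read 9.23, 6.81 and 6.29 against 9.58, 5.21, 9.38 and 10.76, and its difference of 1.29 with group means alone was 0.24 (-0.87 to 1.35) with the term.

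Stress genes showed values on both sides of 0. In the integrated and endoplasmic reticulum stress list (26 measured) 2 were lower and 0 higher, with a median of -0.09: Atf3 had -0.53 (-1.06 to -0.01, counted with the immediate early genes), the chaperone Hspa5 -0.14 (-0.35 to 0.07) and Ddit3, which encodes CHOP, 0.03 (-0.32 to 0.39). Heat shock genes and chaperones (17 measured) had 1 lower and 1 higher with a median of -0.08, and the inducible Hspa1b had 0.17 (-0.29 to 0.63). Oxidative stress genes and NRF2 targets (19 measured) had 3 lower and 1 higher with a median of -0.09. Hmox1, haem oxygenase, read 7.31, 6.09 and 5.79 against 7.60, 6.04, 6.45 and 8.10, a difference of 0.65 with group means alone and 0.22 (-0.38 to 0.83) with the term. Interferon response genes (31 measured) had 0 lower and 0 higher, a median of 0.05 and a wide typical standard error of 0.29. Ifit1, an antiviral effector, read 4.54, 7.18 and 4.82 without 4sU and 4.19, 7.27, 4.40 and 4.22 with it, so that replicate 2 stood high in both groups. Targets of NF-kB (19 measured) had 2 lower and 0 higher, with a median of -0.05.

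The machinery that makes and removes RNA was likewise spread around 0. RNA polymerase and elongation genes (28 measured) had 1 lower and 1 higher with a median of 0.01, splicing factors (32 measured) 2 lower and 0 higher with 0.08, and RNA decay genes (28 measured) 2 lower and 1 higher with 0.03. Polr2a, the large subunit of RNA polymerase II, had -0.08 (-0.60 to 0.45). Snrpb, a core protein of the splicing particles, read 12.48, 12.65 and 11.95 against 12.23, 11.53, 11.80 and 11.83, a difference of -0.60 (-0.90 to -0.30, adjusted p = 0.11).

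Cytoskeletal genes had the lowest list median with the actin term, and sterol and fatty acid synthesis the lowest, at -0.15, with group means alone. Targets of serum response factor and genes of the actin cytoskeleton (18 measured) had 7 lower and 0 higher, and 17 of the 18 differences were negative, with a median of -0.25 that was -0.12 with group means alone. Over all genes, 5437 of 9421 differences were negative. Vcl, vinculin, read 12.05, 11.96 and 12.02 without 4sU and 11.64, 11.58, 11.28 and 11.83 with it, a difference of -0.42 (-0.72 to -0.13) with the groups apart. Pdlim7 had -0.68 and Zyx, zyxin, -0.48, both with overlapping groups, and with group means alone they had -0.48 and -0.19. Tuft1 had -0.61, with 3 of the 4 arrays with 4sU below background. Sterol and fatty acid synthesis (21 measured) had 6 lower and 0 higher with a median of -0.15, among them Dhcr7, of the last step of cholesterol synthesis (-0.57), and Cyp51 (-0.33). Cell cycle genes (37 measured) had 9 lower and 2 higher with a median of -0.09, from Cdc25a, a phosphatase of the transition into S phase (-0.67), to Ccne2, a cyclin E (0.53). Oxidative phosphorylation (27 measured) had 7 lower and 2 higher with a median of -0.13, and Cox8a, at 0.76, read 9.97, 6.21 and 6.41 against 10.04, 6.80, 9.62 and 9.93. The low Cox8a values again lie on the 3 arrays with a large actin difference.

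The other lists were glycolysis (13 measured, 2 lower, 1 higher, median -0.17), fibroblast and matrix (17, 1 lower, 0 higher, -0.15), TGF-beta, BMP and Id genes (17, 0 and 0, -0.15), circadian clock (14, 2 lower, 0 higher, -0.10) and housekeeping (12, 1 lower, 0 higher, -0.09). Col1a1, the main collagen of these cells, read 12.60, 11.81 and 11.45 without 4sU and 12.69, 10.42, 11.33 and 13.09 with it, a difference of -0.45 (-1.13 to 0.22). Of replication-dependent histones 2 were measured, H1f2 at -0.19 and H2aw at 0.52. Cd14, the single leukocyte marker measured, had 0.08 (-0.45 to 0.62).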

How the data were processed

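Total RNA was hybridised to one-colour Affymetrix arrays after one-cycle labelling, per the labels. The deposited values are log2 signals that the authors made with GCRMA, per the submitters' processing notes. Its version is not given in the sources used here. The values were used as deposited. GEO's platform annotation gave 34945 of 45037 probe sets 1 symbol, 932 several and 9160 none; of the 19305 kept, 16890 had 1, and each gene was read from its brightest probe set. No coordinates or sequences are given.

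All 24 arrays were fitted with limma 3.58.1 in R 4.3.3 (lmFit, eBayes; 16 residual degrees of freedom), with two-sided tests, Benjamini-Hochberg adjustment over all 19305 probe sets and a threshold of 0.05. The code was tested on simulated data. "At least" folds set values under log2 4 to 4 and compare group means without the actin term. Genes were named by rule: up to 15 called genes in each direction with groups apart, up to 4 genes per list with the largest difference, a fixed set, and the 5 steepest actin slopes each way. The members and lists were chosen with earlier results of these data known. Alternatives were other terms, array subsets, filters, floors and normalizations, and each array left out.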

Additional observations from a re-analysis of the deposited data

Results flagged for a closer look

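In the 4 arrays with 4sU, 1 array lay farther from the others than Dixon's 95% criterion, on the gap to the nearest array relative to the range, allows for 9 of the 143 probe sets examined, and chance gives about 1 in 20. In 8 of the 9 this was replicate 2, the array with the large actin difference. Its log2 values were high for Tardbp (7.88, next array 7.14), Cxcl10 (5.45, next 4.39), Ifit1 (7.27, next 4.40) and Rsad2 (2.78, next 2.54, all below background). They were low for Rps15 (11.98, next 13.28), Rps19 (10.63, next 13.36), Rps9 (11.08, next 12.69) and Cox8a (6.80, next 9.62). The remaining value was Fos on replicate 4, at 10.33 with the next array at 9.38. The part of RNA integrity in these values was not tested.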

How the results depend on the processing

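All 15 probe sets called lower with 4sU had a negative difference in each of the 24 alternatives that kept them, and each passed the adjusted p in 5 to 18 of them. The alternatives use the same arrays that gave the calls, so the shared direction is a description only. The number of probe sets called in either direction changed much more. In place of 15, all lower, it was 6 without the actin term, 8 with the Gapdh term (2 higher), 6 with 2 actin classes, 2 within the arrays under an actin difference of 2 (1 higher), 0 within those at 2 or more (1 residual degree of freedom), 0 with the 7 arrays alone and 0 with the 15 arrays of 1 h. It was 41 without a filter on low values (2 higher), 0 with a stricter filter, 55 with values under 4 set to 4 (6 higher), 9 with arrays centred on their median, 18 with quantile normalization (1 higher), 6 with array weights and 9 with a trended, robust prior. Leaving out 1 array gave 5 to 162, with 0 to 40 of them higher. In an alternative added after the data were seen, the 7 arrays without the actin term gave 0. Where no higher calls are given above, 0 were higher. The cause of these moves was not tested. On other probe sets of the same gene the sign turned for Mbnl2 (0.12), Ube2e1 (0.14) and Tardbp (0.17 and 0.090). The share of probe sets called for the actin term was 65.7%, and 38.3% with the 7 arrays alone.

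With the replicate number within each time as a replicate block, 1039 probe sets passed (326 higher, 713 lower), the 15 among them, and 111 (24 higher) passed in a block without the actin term, added after the data were seen. Deviations of same-numbered arrays with and without 4sU correlated at 0.80, 0.37 and 0.08, and replicate 3 without 4sU correlated best with replicate 2 with 4sU (0.79). After the actin term the same-numbered arrays correlated at 0.21, 0.15 and -0.003. Not every pair was above 0.1, so the block was kept as an alternative. Same-numbered mock arrays of 1 h were nevertheless alike in quality for some numbers: replicates 1 had an actin difference of 0.88 without 4sU and 0.84 with it, whereas replicates 3 had 3.31 and 1.37. Among the mock, interferon alpha and interferon gamma arrays of 1 h with 4sU, same-numbered arrays were alike throughout. Replicates 1 had 0.84, 0.86 and 0.78, and replicates 2 had 2.99, 3.09 and 3.43. Replicates 3 had 1.37, 1.10 and 1.26, and replicates 4 had 1.04, 0.99 and 0.95. Under the block with the actin term 25 of the 129 genes named by rule passed that did not otherwise, beside 1039 of all 19305 probe sets. Of the 129 genes, 94 were named for the largest differences of their list in these same arrays, so their count is a description only. Among the 25 were Cdkn1a (-0.79, limma's adjusted p = 0.015), Klf10 (-0.60, adjusted p = 0.014), Nr4a1, Cdc25a, Snrpb, Vcl, Pdlim7 and Mdm2, all lower, and Ddb2 and Rps9, both higher.

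The arrays limit what can be seen: with a spread pooled over all groups, 90.0% of probe sets had a 95% interval within 1 log2 unit of 0. Smaller differences, or those of transcripts with steep actin slopes, were often not measurable.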
